A study of Homo sapiens with 6 samples.

Results

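The RNA-binding protein genes described here are ELAVL1, ELAVL2, ELAVL3 and ELAVL4, NOVA1 and NOVA2, RBFOX2, CELF4, and PTBP1 and PTBP2. They were taken by gene symbol from a list of 10 names, and all 10 are among the 19610 gene rows of the count table. All 10 also passed the filter on low counts that left 12196 genes for testing. The counts come from SH-SY5Y, an established human neuroblastoma cell line whose genotype is given as wild type. The 3 control libraries are from cells that received DMSO, the solvent, and the 3 treated libraries from cells that received SGC707, which inhibits PRMT3, an enzyme that methylates arginine in proteins. Libraries carry the letters A, B and C, and the values of a group are printed in that order. The sources used here give no dose or treatment time and do not say whether the libraries of a group were grown as separate cultures. The p-values therefore reflect library-to-library spread, which could be technical.

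ELAVL proteins, also called Hu proteins, bind U-rich and AU-rich stretches of mRNA and can stabilise the mRNA, change its translation or change its splicing. ELAVL1 (HuR) is made in most cells, whereas ELAVL2 (HuB), ELAVL3 (HuC) and ELAVL4 (HuD) are markers of neurons and neuroblastoma. NOVA, RBFOX and CELF proteins are splicing regulators with neuronal roles. PTBP1 represses many neuronal exons in non-neuronal cells and in progenitors, and its paralog PTBP2 takes over during neuronal differentiation. PTBP1 also lowers PTBP2 mRNA by causing an exon of PTBP2 to be skipped.

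Paralogs in these families are alike in sequence, so the stretches of coding sequence where they are most alike are shown first, because counts can only be assigned where paralogs differ. The sequences are from GENCODE release 29 on GRCh38, sense strand, 5′ to 3′. The 60 bases of ELAVL4 run from base 988 to base 1047 of its coding sequence. In the paralogs, capitals mark the bases that differ from ELAVL4.
ELAVL4: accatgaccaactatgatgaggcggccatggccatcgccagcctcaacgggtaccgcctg
ELAVL3: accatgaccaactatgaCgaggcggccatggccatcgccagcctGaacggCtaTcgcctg
ELAVL1: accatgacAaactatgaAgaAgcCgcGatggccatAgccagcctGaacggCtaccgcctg
ELAVL2: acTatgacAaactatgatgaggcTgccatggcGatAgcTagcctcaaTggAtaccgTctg
ELAVL3 differed from ELAVL4 at 4 of the 60 bases, ELAVL1 at 8 and ELAVL2 at 9.

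The corresponding stretches of the PTBP genes start at base 235 of both coding sequences, and capitals mark where PTBP2 differs from PTBP1.
PTBP1: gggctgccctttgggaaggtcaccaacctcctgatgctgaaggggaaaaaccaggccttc
PTBP2: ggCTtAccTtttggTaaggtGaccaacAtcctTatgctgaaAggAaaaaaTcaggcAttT
The stretches of the NOVA genes start at base 208 of the NOVA1 coding sequence and base 157 of that of NOVA2, with capitals where NOVA2 differs from NOVA1.
NOVA1: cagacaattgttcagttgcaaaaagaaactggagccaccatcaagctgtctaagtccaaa
NOVA2: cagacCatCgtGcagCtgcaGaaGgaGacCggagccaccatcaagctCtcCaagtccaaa
PTBP2 differed at 13 of the 60 bases and NOVA2 at 10.

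Even at their most alike, the paralogs shared only short identical runs. The longest run of identical bases between the longest coding transcripts was 26 bases for ELAVL3 and ELAVL4, 23 for ELAVL1 against either of them, and 15 to 20 for the comparisons with ELAVL2. It was 17 bases for NOVA1 and NOVA2 and 12 for PTBP1 and PTBP2. Reads were sequenced in pairs of 150 bases, per the labels. Of all 50-base windows of each transcript, 4.42% of ELAVL3 and 0.493% of PTBP2 also occurred in a transcript of another gene, and none did for the other 8 genes. The windows of ELAVL3 lay in AC008481.3, an overlapping gene on the same strand, which had 4 counts in SGC707 A and 0 in the other 5 libraries. ELAVL1, ELAVL4, RBFOX2 and CELF4 overlap annotated genes on the opposite strand that have no row in the table. The sources used here do not say whether counting used the strand, so reads of those genes cannot be told apart from theirs. ELAVL4, NOVA1, RBFOX2, CELF4 and PTBP1 also overlap annotated genes on the same strand that have no row. Counting by strand would not separate reads of those.

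The libraries held 11658728 to 15437602 counts, of which mitochondrially encoded genes took 46.7% to 60.7% with DMSO and 24.3% to 37.7% with SGC707 (the 95% Wilson interval, for counting error only, was 24.26% to 24.31% in SGC707 A and as narrow in the others). Levels are therefore given as normalised CPM, that is, CPM after TMM scaling in edgeR, which sets each gene against the library total with a factor for composition. Library SGC707 C stood apart in a trend with transcript GC content, with a Spearman correlation across genes of -0.77 between GC content and deviation from the gene means, against -0.13 to 0.53 in the other 5. PRMT3 averaged 16.2 ± 1.32 normalised CPM in the DMSO group and 20.6 ± 2.32 in the SGC707 group (SD, n = 3, log2 fold change 0.34, edgeR adjusted p = 0.479). Its mRNA need not respond to an inhibitor of the protein. Of 12 markers of adrenergic neuroblastoma, 11 were tested and TH was listed at 0 in every library. Their summed level was 5142 to 6178 normalised CPM with DMSO and 4098 to 4847 with SGC707, with negative log2 fold changes in 9 of the 11. That direction holds for TMM scaling, whose factors were 0.663 to 0.937 with DMSO and 1.06 to 1.39 with SGC707. With library totals alone the SGC707 sums were the higher ones. The 5 Schwann and glial markers summed to at most 3.13 normalised CPM, with SOX10 at 0, and the 5 epithelial markers to at most 3.34. The 6 mesenchymal markers, mostly VIM, summed to 154.2 to 197.2 normalised CPM with DMSO and 161.8 to 181.2 with SGC707. The 5 markers of mature central neurons summed to 36.0 to 51.6 and 22.4 to 42.5 normalised CPM, nearly all of it GRIN1, with GAD1 at 0.

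ELAVL4 was by far the most abundant of the 10 genes when levels were set per kilobase of the longest coding transcript. With DMSO it stood at 263.3 ± 53.7 normalised CPM per kb (SD, n = 3), and its mean over the 6 libraries was above that of 99.3% of tested genes. ELAVL3 followed at 69.8 ± 13.4, RBFOX2 at 55.0 ± 2.89, PTBP1 at 45.6 ± 1.98 and ELAVL1 at 25.3 ± 1.01 normalised CPM per kb. NOVA2 (10.3 ± 1.46), CELF4 (7.94 ± 0.377), PTBP2 (4.12 ± 0.198), ELAVL2 (3.64 ± 0.289) and NOVA1 (2.74 ± 0.237) were lower on the same scale. ELAVL3 and RBFOX2 overlapped in their DMSO libraries (54.7 to 80.1 and 51.8 to 57.5 normalised CPM per kb), and the other neighbours in this order did not. With SGC707 the order was ELAVL4 (150.8 ± 36.1), RBFOX2 (63.4 ± 3.48), ELAVL3 (46.6 ± 2.78), PTBP1 (36.5 ± 5.21), ELAVL1 (21.0 ± 0.593), CELF4 (7.82 ± 1.65), NOVA2 (7.07 ± 0.745), ELAVL2 (4.36 ± 0.285), PTBP2 (3.73 ± 0.0466) and NOVA1 (2.30 ± 0.675) normalised CPM per kb. There CELF4 and NOVA2 overlapped, and RBFOX2 and ELAVL3 did not. The level of PTBP2 per kb depends on the transcript assumed, since its longest one has 12014 bases, of which 1599 are coding. ELAVL4 and ELAVL3 thus held most of the ELAVL counts per kb in these libraries, and ELAVL2 the fewest.

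**Figure D1:**
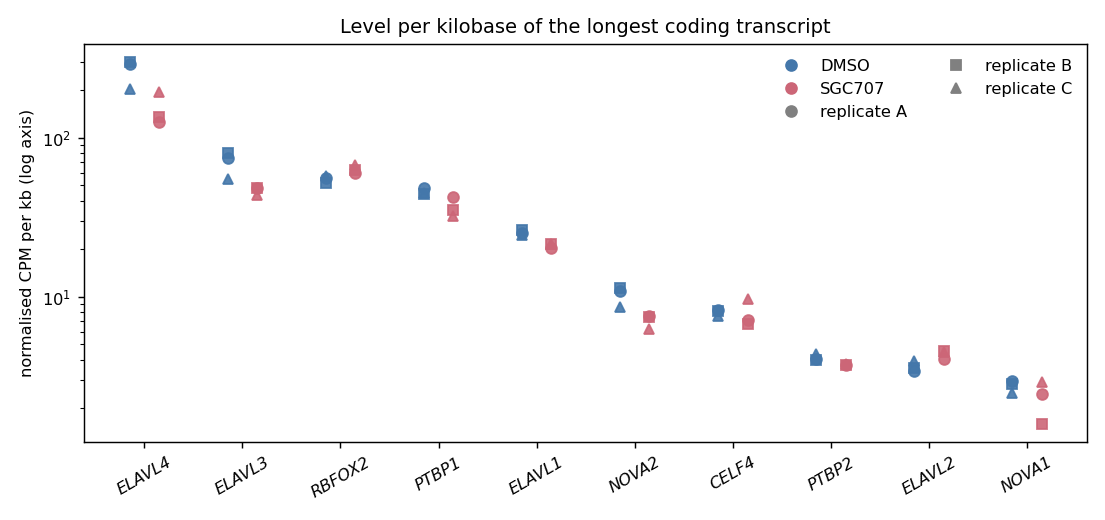
Level of each gene in every library, in normalised CPM per kilobase of the longest coding transcript (log axis), ordered by the DMSO mean, with colour for the group and symbol for the replicate letter. ELAVL4 lies between 125.5 and 298.5 in all 6 libraries, above each of the other 9 genes.

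No gene of the 10 passed the test between SGC707 and DMSO. In edgeR's quasi-likelihood test with Benjamini-Hochberg adjustment over all 12196 genes, 0 of 10 passed an adjusted p of 0.05, where 0.0246% of all tested genes did. DESeq2 also called 0 of 10, against 2.47% of all tested genes, and limma-voom 0 of 10, against 0.0164%. The lowest DESeq2 adjusted p of the 10 was 0.052, for ELAVL4, just above the threshold. At an unadjusted edgeR p under 0.05, 3 of the 10 were lower (ELAVL3, ELAVL4 and NOVA2; 7.13% of all tested genes) and 0 were higher (5.62% of all). The 3 SGC707 libraries lay below the 3 DMSO libraries in 6 genes, ELAVL1, ELAVL3, ELAVL4, NOVA2, PTBP1 and PTBP2. This was true of 9.78% of tested genes. The SGC707 libraries lay above in ELAVL2 and RBFOX2, which was true of 10.8%. With scaling by library totals alone 0 of the 10 lay below, where 0.771% of tested genes did, and 3 lay above, where 49.5% did. The 10 genes were chosen with earlier results of these data known, so these counts are descriptions. The log2 fold change was negative in 8 of the 10 genes and in 47.2% of all tested genes, whose median was 0.02. With library totals it was negative in 1 of the 10, and the median of all tested genes was then 0.69.

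ELAVL4 (chromosome 1, 50048014 to 50203786, the whole gene on GRCh38, as for the genes that follow), the neuronal HuD gene, had the lowest log2 fold change of the 10. It stood at 1149.5, 1183.7 and 799.0 normalised CPM with DMSO, and at 497.6, 534.9 and 762.2 with SGC707. SGC707 C lay just below DMSO C, whereas SGC707 A and B lay well below every DMSO library. The means were 1044 ± 213 and 598 ± 143 normalised CPM (SD, n = 3), which edgeR fitted as -0.80 on the log2 scale (SE 0.22, 95% interval -1.32 to -0.29, adjusted p = 0.262). With 8235 to 12108 counts per library, counting error was at most 1.10%, far below the spread between libraries of a group. Without SGC707 C the log2 fold change was -1.02 and passed (edgeR adjusted p = 0.0298), where 5.53% of genes tested in that fit were lower by the same rule. The ELAVL4 transcript has a GC content of 36.9%, and after a correction of all libraries for GC content and length its values were 568.7, 582.0 and 579.6 normalised CPM with SGC707. With DMSO they were then 1171, 1222 and 768.6, and the corrected log2 fold change was -0.87 (edgeR adjusted p = 0.0628).

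ELAVL3 (chromosome 19, 11451326 to 11481046), the HuC gene, stood at 353.5, 378.7 and 258.7 normalised CPM with DMSO and at 228.7, 226.9 and 205.1 with SGC707. All SGC707 libraries were below DMSO C, the lowest of the DMSO group. The log2 fold change was -0.58 (SE 0.17, 95% interval -0.98 to -0.19, edgeR adjusted p = 0.266). Its transcript has a GC content of 58.0%, and after the GC and length correction SGC707 C stood at 281.9 normalised CPM, above DMSO C at 259.2, so the groups overlapped. The corrected log2 fold change was -0.46 (edgeR adjusted p = 0.163).

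ELAVL2 (chromosome 9, 23690104 to 23826337), the HuB gene, was the only ELAVL gene with a positive log2 fold change under TMM scaling, whereas with library totals ELAVL1 and ELAVL3 were positive too. It stood at 12.9, 13.6 and 15.0 normalised CPM with DMSO and at 15.3, 17.4 and 17.1 with SGC707. DMSO C and SGC707 A nearly met, and with 135 to 276 counts per library the counting error alone was 6.02% to 8.61%. The log2 fold change was 0.26 (SE 0.18, 95% interval -0.15 to 0.67, edgeR adjusted p = 0.575), and the groups overlapped after the GC and length correction.

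ELAVL1 (chromosome 19, 7958579 to 8005659), which encodes the widely made HuR, varied little within groups. It stood at 150.3, 158.8 and 146.9 normalised CPM with DMSO and at 122.1, 128.0 and 128.5 with SGC707. The 2 groups were narrow and apart, and the log2 fold change was -0.27 (SE 0.12, 95% interval -0.56 to 0.02, edgeR adjusted p = 0.421). ELAVL1 is at 46.1% GC, and the correction left its log2 fold change at -0.26 with the groups apart.

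Within a library, the shares of the 4 ELAVL genes do not depend on library scaling. ELAVL4 made up 73.8%, 73.1% and 70.8% of ELAVL counts per kb with DMSO and 63.3%, 64.6% and 73.5% with SGC707. SGC707 C therefore lay within the range of the DMSO libraries, while A and B lay below it. These shares are not corrected for GC content, in which ELAVL4 (36.9%) and ELAVL3 (58.0%) differ. After the GC and length correction SGC707 C had 579.6 normalised CPM of ELAVL4 and 281.9 of ELAVL3. Its ELAVL4 share per kb then lay below the DMSO range too. The 3 neuronal genes together held 93.6%, 93.5% and 91.4% with DMSO and 89.8%, 89.8% and 91.8% with SGC707, or 92.9% ± 1.26 and 90.5% ± 1.18 (SD, n = 3). The groups overlapped, and the difference of -2.40 percentage points was not distinguishable (two-sided exact permutation p = 0.2, where 3 against 3 cannot go below 0.1). Counting error gives each library's share a 95% interval of at most 0.433 points to either side.

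NOVA2 (chromosome 19, 45933734 to 45973546), one of the 2 genes for NOVA splicing factors, had lower values in all SGC707 libraries. It stood at 84.8, 89.0 and 67.4 normalised CPM with DMSO and at 59.2, 57.8 and 48.5 with SGC707. Its fitted log2 fold change was -0.54 (SE 0.17, 95% interval -0.93 to -0.16, edgeR adjusted p = 0.278). NOVA2 is GC-rich like ELAVL3 (57.0%), and the corrected log2 fold change was -0.42 (edgeR adjusted p = 0.0977) with the groups still apart. After the correction, leaving out SGC707 C let NOVA2 (-0.51, edgeR adjusted p = 0.0479) and ELAVL3 (-0.63, edgeR adjusted p = 0.0487) pass, where 5.19% of genes in that fit passed as lower. ELAVL4 did not pass in that fit (-0.87, edgeR adjusted p = 0.0622).

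NOVA1 (chromosome 14, 26443093 to 26597754) was the least abundant of the 10, with 98 to 157 counts per library and a counting error of up to 10.1%. It stood at 11.5, 10.9 and 9.72 normalised CPM with DMSO and at 9.49, 6.16 and 11.4 with SGC707. SGC707 B was the lowest of the 6 libraries and SGC707 C close to the highest, so the groups overlapped. The log2 fold change was -0.25 (95% interval -0.86 to 0.36, edgeR adjusted p = 0.721), and it was -0.041 without SGC707 B and -0.46 without SGC707 C. No difference in NOVA1 was detectable beyond this spread, although the interval does not show that the groups were alike.

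**Figure D2:**
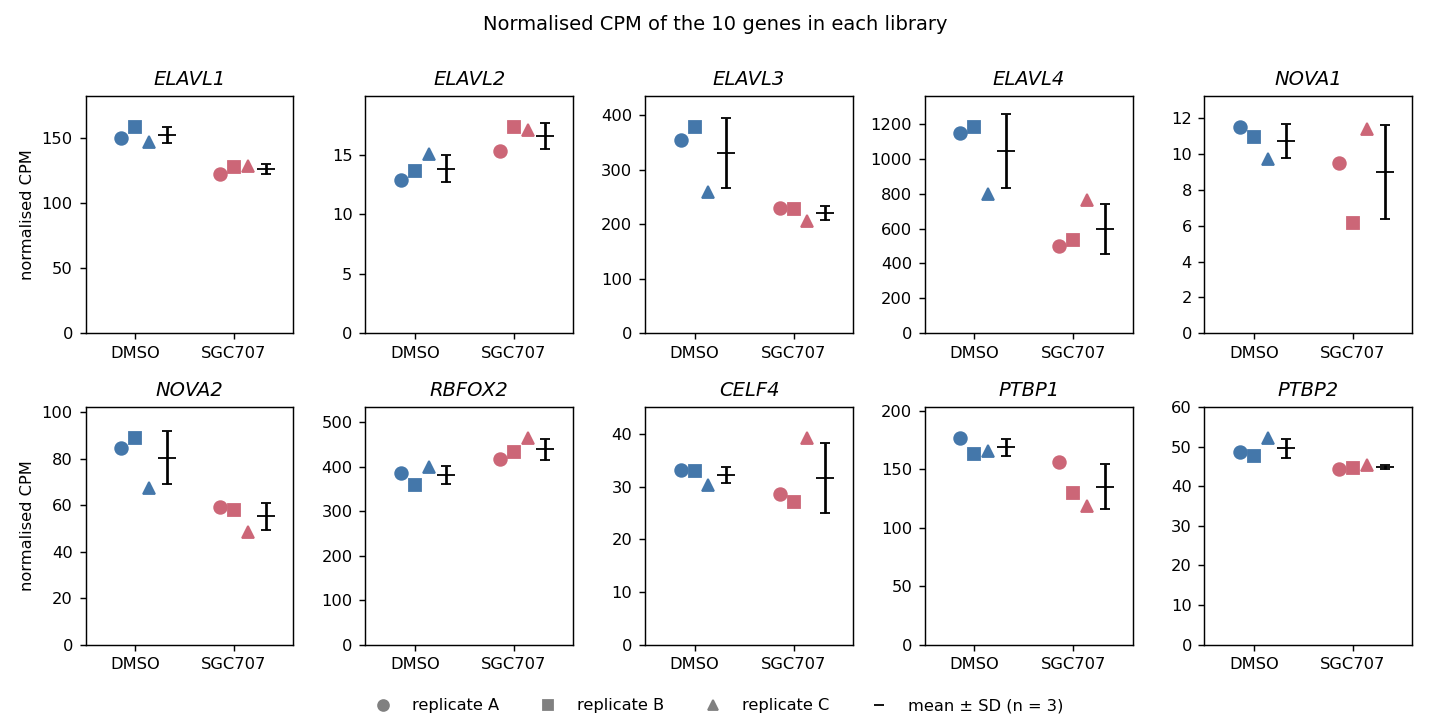
Normalised CPM of each gene in every library, with a separate axis from 0 for each gene, colour for the group, symbol for the replicate letter, and a black mark for the mean ± SD (n = 3). With this TMM scaling, but not with library totals, the SGC707 libraries lie below the DMSO libraries in 6 genes. In ELAVL2 and RBFOX2 they lie above in both scalings, and in CELF4 with library totals only. In NOVA1 and CELF4 the groups overlap with TMM scaling. Of all tested genes, 9.78% lie below and 10.8% above with TMM scaling, and 0.771% and 49.5% with library totals.

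RBFOX2 (chromosome 22, 35738736 to 36028425), which encodes a splicing factor that binds UGCAUG, had higher values in all SGC707 libraries. It stood at 385.8, 359.4 and 398.7 normalised CPM with DMSO and at 418.0, 434.3 and 465.4 with SGC707. The gap between DMSO C and SGC707 A was small, and the log2 fold change was 0.20 (SE 0.13, 95% interval -0.09 to 0.50, edgeR adjusted p = 0.536). The groups stayed apart after the GC and length correction, at a log2 fold change then of 0.22 by edgeR (adjusted p = 0.178). Per kb, the RBFOX2 level was 0.745, 0.647 and 1.05 times that of ELAVL3 with DMSO and 1.25, 1.31 and 1.55 times with SGC707. That comparison was chosen after the values were seen and has no test. RBFOX2 was thus above ELAVL3 in all 3 SGC707 libraries and in DMSO C, but below it in DMSO A and B. These ratios are not corrected for GC content, which is 45.7% for RBFOX2 and 58.0% for ELAVL3. After the GC and length correction SGC707 C had 417.9 normalised CPM of RBFOX2 and 281.9 of ELAVL3, against 392.3 and 259.2 in DMSO C. The ratio in SGC707 C was then slightly below that in DMSO C, so the groups overlapped.

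CELF4 (chromosome 18, 37243047 to 37566037), a splicing and translation regulator enriched in neurons, stood at 33.2, 32.9 and 30.4 normalised CPM with DMSO and at 28.7, 27.0 and 39.4 with SGC707. SGC707 C was the highest library and SGC707 B the lowest, and the log2 fold change was -0.02 (95% interval -0.46 to 0.42, edgeR adjusted p = 0.972). Its sign depended on single libraries, at -0.21 without SGC707 C, 0.046 without SGC707 A and 0.081 without SGC707 B.

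PTBP1 (chromosome 19, 797075 to 812327), the repressor of neuronal exons, stood at 176.7, 162.9 and 165.8 normalised CPM with DMSO and at 156.1, 129.8 and 118.6 with SGC707. All SGC707 libraries were below the DMSO libraries, and they spread more widely. The log2 fold change was -0.32 (SE 0.15, 95% interval -0.67 to 0.02, edgeR adjusted p = 0.421). PTBP1 has the highest GC content of the 10 transcripts (59.4%). After the correction its values were 130.9, 119.1 and 172.4 normalised CPM with SGC707, with SGC707 C now above DMSO A, B and C at 161.7, 153.1 and 167.0. The corrected log2 fold change was -0.19 (edgeR adjusted p = 0.446), more than 1.5 times smaller.

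PTBP2 (chromosome 1, 96721665 to 96823738), the neuronal paralog, stood at 48.6, 47.7 and 52.2 normalised CPM with DMSO and at 44.4, 44.7 and 45.4 with SGC707. Its SGC707 libraries were close together and just below the DMSO libraries. Its fitted log2 fold change was -0.14 (SE 0.14, 95% interval -0.46 to 0.17, edgeR adjusted p = 0.690). PTBP2 has the lowest GC content of the 10 (34.7%), and after the correction SGC707 A at 52.6 normalised CPM was the highest of the 6 libraries and SGC707 C at 34.1 the lowest.

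The switch from PTBP1 to PTBP2 marks neuronal differentiation, so their ratio was compared within libraries. PTBP1 had 3.63, 3.41 and 3.18 counts for each PTBP2 count with DMSO and 3.52, 2.91 and 2.61 with SGC707. SGC707 A lay within the DMSO range and SGC707 B and C below it. Per kb, the log2 ratio of PTBP2 to PTBP1 was -3.47 ± 0.0971 in the DMSO group and -3.28 ± 0.218 in the SGC707 group (SD, n = 3), a difference of 0.19 (two-sided exact permutation p = 0.3; smallest possible 0.1). After the GC and length correction the difference was 0.072 (two-sided exact permutation p = 1), and without SGC707 C it was 0.089. Without SGC707 A it was 0.30. No change in the ratio was distinguishable from the spread between libraries.

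**Figure D3:**
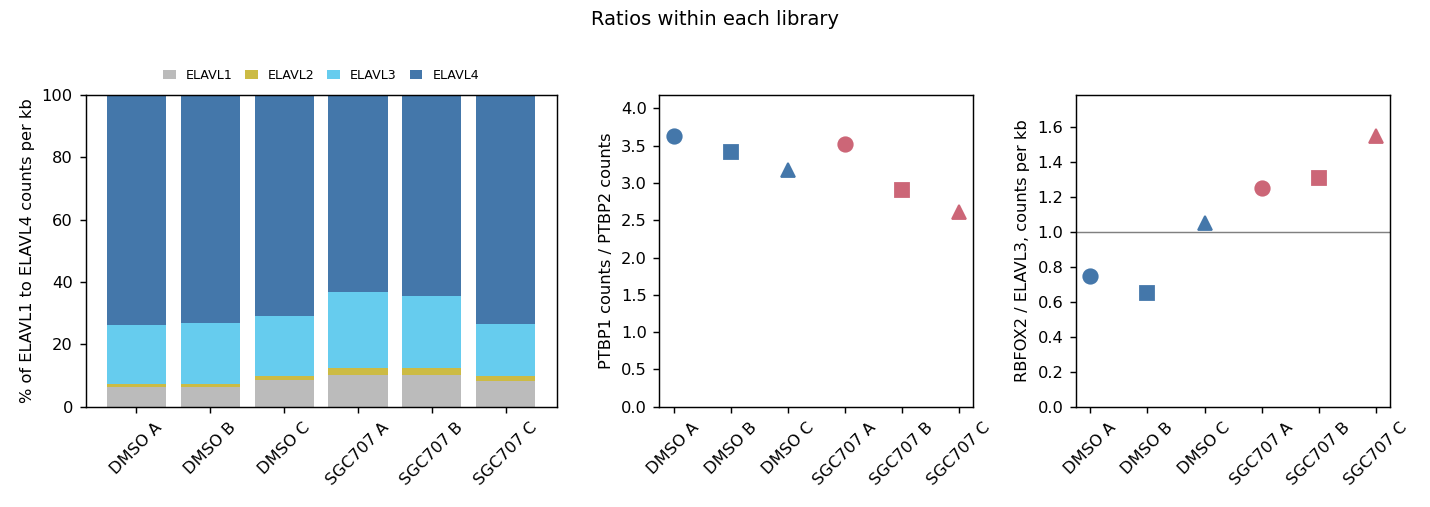
Left, share of each ELAVL gene in the summed ELAVL1 to ELAVL4 counts per kb of each library, in percent. Middle, counts of PTBP1 for each count of PTBP2, and right, RBFOX2 divided by ELAVL3 in counts per kb with a line at equality. ELAVL4 holds 63.3% to 73.8% of the ELAVL counts per kb, and the PTBP1 to PTBP2 ratio lies between 2.61 and 3.63 in the 6 libraries.

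The sign of most of these differences depended on the scaling. With scaling by library totals alone, which keeps the mitochondrial share in the denominator, the median log2 fold change of all tested genes moved to 0.69, and ELAVL4 (-0.14) was the only gene of the 10 that stayed negative. ELAVL2 (0.92, edgeR adjusted p = 0.0499) and RBFOX2 (0.86, edgeR adjusted p = 0.0435) then passed, where 21.1% of all genes passed as higher. In that scaling 3 of the 10 lay above the DMSO libraries without overlap (49.5% of all genes) and 0 below (0.771%). Relative to the shifted median, ELAVL1, ELAVL3, ELAVL4, NOVA1, NOVA2, CELF4, PTBP1 and PTBP2 were lower and ELAVL2 and RBFOX2 higher. After the GC and length correction 3 of the 10 lay below without overlap (ELAVL1, ELAVL4 and NOVA2) and 1 above (RBFOX2), where 14.9% of all genes did so in each direction. The mitochondrial share and, under TMM scaling but not with library totals, the adrenergic marker level were lower in the SGC707 group. The GC trend differed between libraries. The part of these in the differences was not tested beyond these fits. In bulk libraries fewer cells of a type and less RNA per cell cannot be told apart.

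**Figure D4:**
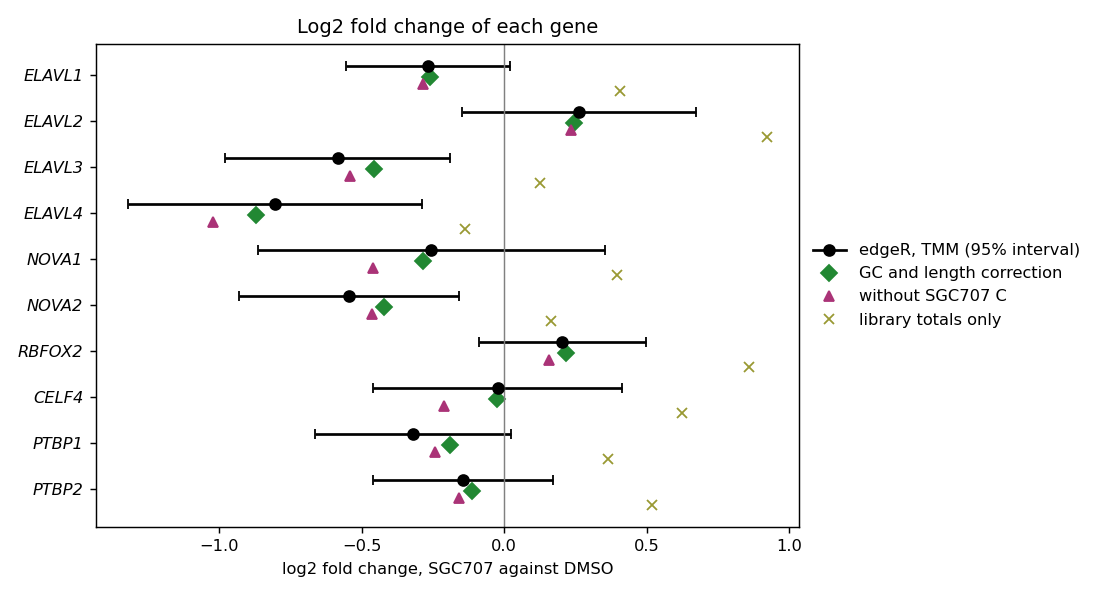
Log2 fold change of each gene, SGC707 against DMSO, with the 95% interval of the edgeR fit on TMM-scaled counts (circles), after GC and length correction (diamonds), without SGC707 C (triangles) and with library totals only (crosses). The intervals of ELAVL3, ELAVL4 and NOVA2 lie below 0, and with library totals 9 of the 10 genes are above 0.

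Other genes of these pathways were taken from 6 lists, which were chosen with earlier results known, and 0 of their 89 tested genes passed edgeR's test. DESeq2 called 2 of the 89, CELF3 and MYC, close to its share of 2.47% among all tested genes, and limma-voom called 0. At an unadjusted edgeR p under 0.05, 3 of the 89 were higher and 6 lower, against 5.62% and 7.13% of all tested genes. Without overlap between groups, 10.8% of all tested genes were higher and 9.78% lower. Among the other members of the RBFOX, CELF and PTBP families, 5 of 8 were tested, RBFOX1, RBFOX3 and CELF2 being too low. Of the 5, 2 had positive and 3 negative values, and the median log2 fold change was -0.09. CELF3, a neuronal relative of CELF4, had the smallest p of those lower, at 108.7, 102.7 and 70.9 normalised CPM with DMSO and 60.1, 49.3 and 29.7 with SGC707. Its groups did not overlap (log2 fold change -1.02, SE 0.28, edgeR adjusted p = 0.262). PTBP3 had the smallest p of those higher (0.15, edgeR adjusted p = 0.795).

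Other neural splicing regulators and cofactors, such as the MBNL and KHDRBS genes, had 6 positive and 8 negative values among 14 tested of 17, with a median log2 fold change of -0.07. KHDRBS1, which encodes the splicing factor SAM68, had the smallest p of those higher (0.36, edgeR adjusted p = 0.372), and the muscleblind gene MBNL2 of those lower (-0.68, edgeR adjusted p = 0.317). Both had groups that did not overlap. Among regulators of mRNA stability and translation, 15 were positive and 7 negative of 22 tested of 25, with a median of 0.11. PUM2, a Pumilio repressor (0.30, edgeR adjusted p = 0.463), and CPEB4, which regulates poly(A) tails (-1.10, edgeR adjusted p = 0.368), had the smallest p in each direction.

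mRNAs described as targets of Hu proteins had 13 positive and 8 negative values among 21 tested of 22, and their median log2 fold change was 0.14. With TMM scaling the SGC707 libraries lay above the DMSO libraries without overlap in 5 of the 21 (10.8% of all tested genes). They lay below in 0 (9.78% of all). GAP43, the growth-cone protein gene and a known HuD target, had the smallest p of those lower, at 48.7, 53.5 and 48.3 normalised CPM with DMSO and 34.1, 34.3 and 48.5 with SGC707. Its SGC707 C library lay within the DMSO range while A and B were below it (log2 fold change -0.37, edgeR adjusted p = 0.461). MYC had the smallest p of those higher (3.67, SE 0.99, edgeR adjusted p = 0.251). MYC counts were 23, 29 and 32 with DMSO and 33, 725 and 691 with SGC707. Only SGC707 B and C were high, and SGC707 A was at the DMSO level.

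Transcripts described as spliced by NOVA had 6 positive and 5 negative values among 11 tested of 14, with a median log2 fold change of 0.05. The calcium pump gene ATP2B1 (0.17, edgeR adjusted p = 0.775) and the calcium channel gene CACNA1B (-0.27, edgeR adjusted p = 0.578) had the smallest p in each direction. Transcripts with exons repressed by PTBP1 had 3 positive and 13 negative values among 16 tested of 16, with a median of -0.16. With TMM scaling the SGC707 libraries lay below the DMSO libraries without overlap in 4 of the 16 (9.78% of all tested genes). They lay above in 0 (10.8% of all). The clathrin light chain gene CLTB (-0.73, edgeR adjusted p = 0.287) had the smallest p of those lower. Gene counts do not measure exon use, so these lists say nothing of splicing.

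The tested genes most like ELAVL4 across the 6 libraries, by Pearson's r of log2 CPM among 10191 genes with a mean of at least 5 CPM, were KAT6B (0.998), EPB41L4A (0.998) and ERO1A (0.997). Those most like PTBP1 were RAB36 (0.987), NDST1 (0.985) and MCM3 (0.981). With so many genes and only 6 libraries, which differ in depth and GC trend for all genes at once, these values are a description only.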

How the data were processed

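RNA sequencing measured transcript levels in 6 libraries, made after DNase treatment and mRNA isolation per the labels. The values are whole-number counts per gene symbol, unscaled, as deposited by the authors. The submitters' processing notes name HISAT2, StringTie and GRCh38, without versions. The annotation and the treatment of shared reads were not stated there.

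Counts were fitted with edgeR 4.0.16 under R 4.3.3, using filterByExpr, TMM scaling, robust glmQLFit and glmQLFTest without covariates. Benjamini-Hochberg adjustment covered the 12196 tested genes, with a threshold of 0.05. The SE of a log2 fold change is its size over the root of F. Ratios and shares were compared by exact permutation of the libraries, after adding 0.5 to PTBP counts. The GENCODE 29 annotation gave lengths, GC content and 1-based coordinates, with 19271 symbols matched directly and 277 by synonym. The GC and length correction used lowess curves (span 0.3) for each library, fitted to nuclear genes averaging 20 counts or more, as edgeR offsets. The fit was tested on simulated data. Figures used matplotlib 3.10.9.

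The genes, lists and alternatives were chosen with earlier results of these data known. Named genes are the 10 listed, PRMT3, the smallest p in each direction per list, and the 3 genes most like ELAVL4 and PTBP1, of which 1 gene is not reported here. Libraries within a group differed beyond sampling noise (the lowest chi-square per degree of freedom was 12.4), so none were merged. Alternatives were other scalings, filters and tools, a block on the letter, a threshold of 0.01, the correction, and each library left out.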

Additional observations from a re-analysis of the deposited data

How the results depend on the processing

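The fit without SGC707 C after the GC and length correction was chosen after seeing the data. No gene of the 10 was called with RLE size factors, no filter, a stricter filter (mean count of 50 or more, and 3 libraries at 1 CPM), limma-voom (limma 3.58.1), DESeq2 1.42.0, the correction, or without mitochondrial genes. Library totals gave 2 of the 10 higher, and leaving out 1 library gave 0 to 1 lower and 0 higher. The correction without SGC707 C gave 2 lower. Of all genes, 1 was higher and 2 lower. These counts were 2574 and 31 with library totals, 1 and 5 with no filter, 52 and 249 with DESeq2, 0 and 2 with limma-voom, and 9 and 53 after the correction. They were 298 and 643 after the correction without SGC707 C, 0 and 0 at an adjusted p under 0.01, and 0 to 462 and 0 to 685 with 1 library left out, highest without SGC707 C. The cause was not tested.

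With the replicate letter as a block, 0 of the 10 and 0 of all genes were called (ELAVL4 -0.81), and 1 higher and 1 lower gene after the correction with the block. Same-lettered libraries deviated together with correlations of 0.08, -0.023 and 0.1, and differently lettered ones with -0.108 to 0.1. No pairing by letter was visible in these values. With 3 libraries in a group they cannot show whether the letters pair cultures. The block gave the PTBP2 to PTBP1 difference as 0.19 and the neuronal ELAVL difference as -2.40 points.

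Library totals turned ELAVL1 (0.41), ELAVL3 (0.12), NOVA1 (0.40), NOVA2 (0.16), CELF4 (0.63), PTBP1 (0.36) and PTBP2 (0.52) positive. CELF4 turned positive without SGC707 A (0.046) or SGC707 B (0.081), with a lowest value of -0.21 without SGC707 C, and PTBP2 after the correction without SGC707 C (0.051). Of the 10, 6 were lower without overlap (9.78% of all tested genes), against 0 with library totals (0.771%) and 3 after the correction (14.9%). Higher without overlap were 2 (10.8% of all), against 3 with library totals (49.5%) and 1 after the correction (14.9%). The neuronal ELAVL difference ranged from -3.13 to -2.02 points and the PTBP difference from 0.089 to 0.30 with 1 library left out. Depth limits NOVA1 and ELAVL2 most.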
